A study of Mus musculus with 18 samples.

Results

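The interferon regulatory factors are a family of transcription factors, and 8 of its genes, Irf1, Irf2, Irf3, Irf4, Irf5, Irf7, Irf8 and Irf9, were followed in whole mouse lung. They were chosen as a gene family, with earlier results of these data known. Each is read from 1 probe set, the brightest on average of those annotated to that gene alone. These probe sets are 1448436_a_at for Irf1, 1418265_s_at for Irf2, 1426111_x_at for Irf3, 1421173_at for Irf4, 1460231_at for Irf5, 1417244_a_at for Irf7, 1448452_at for Irf8 and 1421322_a_at for Irf9. All 8 listed genes had such a probe set, out of 18193 genes with one on the array. RNA came from whole lungs of male mice aged 16 weeks, 1 lung per Affymetrix mouse genome array, in 6 groups of 3 arrays. Mice of all 6 groups had first been injected intraperitoneally with 100 µg ovalbumin, the egg-white protein, on alum, 3 times at weekly intervals. The resiquimod groups of A/J and of C57BL/6 mice received 3 daily intraperitoneal injections of 100 µg resiquimod, each 24 h before an aerosol of 1% ovalbumin. The ovalbumin groups of both strains received the ovalbumin aerosol on 3 consecutive days without resiquimod. The PBS groups of both strains were sensitised in the same way and inhaled PBS alone. Resiquimod is a small imidazoquinoline that activates Toll-like receptor 7. Unsensitised mice, and mice given resiquimod without ovalbumin aerosol, were not analysed here, so every difference is one between sensitised animals. A/J and C57BL/6 are inbred strains, and A/J mice are known for stronger airway responses to allergen.

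All members share a DNA-binding domain that recognises repeats of a GAAA core in interferon-responsive promoters. Irf3, Irf5 and Irf7 are held in the cytoplasm until a pattern-recognition receptor signals, and then switch on interferon genes. Irf9 is the DNA-binding part of the complex that carries the type I interferon signal, and Irf1 and Irf2 act on many of the same sites as an activator and an opposing factor. Irf4 and Irf8 are found mainly in immune cells, where they pair with factors such as PU.1 and the Batf proteins and guide the development of dendritic cells, macrophages and B cells.

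The promoters are shown because the family is known to regulate its own members through 2 kinds of short site. RefSeq (GRCm38.p6) gave a promoter entry for all 8 members. Irf1, Irf8 and Irf9 had 2 annotated starts each, and for Irf1 and Irf8 the window of the first is shown. Each 5′ to 3′ sequence covers the 250 bases before 1 annotated start of the gene, in lower case. Capitals mark a match on either strand to 1 of the 2 kinds of site. These are the interferon-stimulated response element core (ISRE, searched as GAAANNGAAA) and the gamma-activated site (GAS, searched as TTCNNNGAA). Irf3 and Irf7 lie on chromosome 7, Irf2 and Irf8 on chromosome 8, and Irf1, Irf4, Irf5 and Irf9 on chromosomes 11, 13, 6 and 14. The Irf7 window lies at chr7:141266425-141266674 on the minus strand, that of Irf8 at chr8:120736108-120736357, that of Irf1 at chr11:53769764-53770013 and that of Irf2 at chr8:46739495-46739744, the last 3 on the plus strand. They are those of the member with the widest differences and of the 3 members with a match.
Irf7: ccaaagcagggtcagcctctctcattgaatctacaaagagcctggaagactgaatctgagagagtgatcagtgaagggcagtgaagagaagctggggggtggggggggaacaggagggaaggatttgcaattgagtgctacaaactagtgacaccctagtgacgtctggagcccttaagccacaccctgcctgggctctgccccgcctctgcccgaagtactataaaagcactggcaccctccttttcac
Irf8: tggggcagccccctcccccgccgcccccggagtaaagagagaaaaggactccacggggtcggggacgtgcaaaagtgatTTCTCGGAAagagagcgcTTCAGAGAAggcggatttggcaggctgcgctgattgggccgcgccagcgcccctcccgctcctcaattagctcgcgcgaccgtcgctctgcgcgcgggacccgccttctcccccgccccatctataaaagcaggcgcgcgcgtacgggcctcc
Irf1: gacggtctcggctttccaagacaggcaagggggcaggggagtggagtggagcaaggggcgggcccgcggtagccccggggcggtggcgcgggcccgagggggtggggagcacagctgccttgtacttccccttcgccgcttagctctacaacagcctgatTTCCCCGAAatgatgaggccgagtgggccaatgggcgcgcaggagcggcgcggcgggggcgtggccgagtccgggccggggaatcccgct
Irf2: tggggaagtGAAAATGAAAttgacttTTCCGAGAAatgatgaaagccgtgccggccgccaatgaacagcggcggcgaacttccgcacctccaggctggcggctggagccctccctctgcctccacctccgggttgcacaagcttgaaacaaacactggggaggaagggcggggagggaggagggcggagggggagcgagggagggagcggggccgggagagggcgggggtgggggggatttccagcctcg
The first window of Irf8 held 2 GAS matches, 171 and 153 bases before its start, and that of Irf1 held 1, at 90 bases. Irf2 held 1 ISRE match at 241 bases and 1 GAS match at 224 bases, which do not overlap. The windows of Irf3, Irf4, Irf5, Irf7 and Irf9 held neither, nor did the second windows of Irf1 and Irf8, searched up to 50 bases past the start. Among all 32851 promoter windows of 27025 genes, 3.44% held the ISRE letters and 8.3% the GAS letters. Counted by gene, with a match in any window, the shares were 3.99% and 9.55%.

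The deposited log2 values ran from 2.00 to 14.03, and the array medians lay between 4.77 and 4.80. Arrays of the same group correlated at 0.987 to 0.997 over all probe sets. Lung markers such as surfactant protein genes were high on every array, with a mean over 10 genes of 12.02 to 12.22. On 8 arrays the 16 squamous epithelium genes averaged 7.11 to 8.42, against 3.90 to 4.38 on the other 10. Those 8 were replicate 1 of A/J resiquimod, replicates 1 and 3 of A/J ovalbumin, replicate 1 of A/J PBS, replicate 2 of C57BL/6 resiquimod, replicate 1 of C57BL/6 ovalbumin and replicates 1 and 3 of C57BL/6 PBS. Nnt, which encodes a mitochondrial transhydrogenase and is deleted in part in the C57BL/6J substrain, averaged 8.34 in C57BL/6 resiquimod lungs and 8.40 in C57BL/6 ovalbumin lungs, against 7.07 in C57BL/6 PBS lungs. The C57BL/6 PBS group therefore stood apart at Nnt, and substrain and PBS treatment cannot be told apart in comparisons that use it.

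The members ranged from genes that moved widely to genes that stayed nearly level. The mean of the 6 groups spanned 1.79 log2 units for Irf7, 1.39 for Irf4 and 1.22 for Irf5, 0.69 for Irf8 and 0.49 for Irf2. Irf1, Irf9 and Irf3 spanned 0.33, 0.32 and 0.28. The median span over all genes was 0.28, and 7.39% of genes (1344) spanned at least 1. Irf4 also varied most among arrays of the same group, with a pooled SD of 0.41, larger than that of 97.8% of genes, and Irf9 least, with 0.10.

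**Figure D1:**
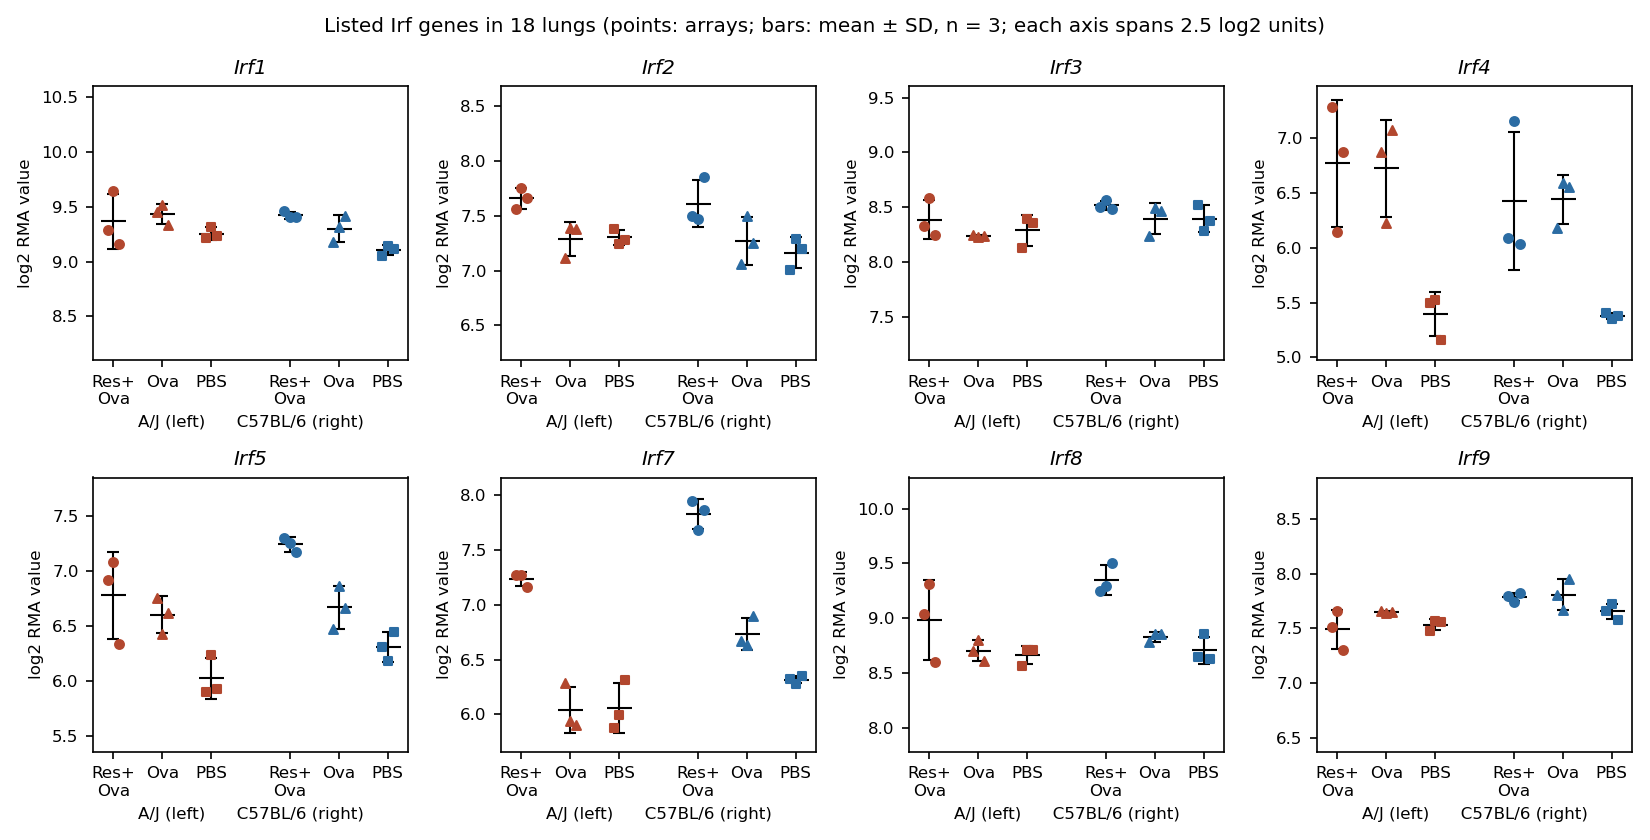
Log2 values of the 8 Irf genes, 1 point per array, in resiquimod with ovalbumin (circles), ovalbumin (triangles) and PBS (squares) lungs of A/J (red, left) and C57BL/6 (blue, right) mice; bars are mean ± SD, n = 3, and every axis spans 2.5 log2 units. Irf7 is highest in the resiquimod groups of both strains, and Irf4 is lowest in the PBS groups.

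Irf7, the amplifier of type I interferon production downstream of Toll-like receptors 7 and 9, was higher in resiquimod lungs than in ovalbumin lungs of both strains. In A/J it read 7.27, 7.27 and 7.16 in resiquimod lungs, 6.28, 5.94 and 5.90 in ovalbumin lungs, and 5.88, 5.99 and 6.31 in PBS lungs. All 3 A/J resiquimod arrays stood above all 6 others of that strain, while ovalbumin and PBS arrays overlapped. In C57BL/6 it read 7.94, 7.68 and 7.87 in resiquimod lungs, 6.67, 6.63 and 6.90 in ovalbumin lungs, and 6.32, 6.28 and 6.35 in PBS lungs. The 3 C57BL/6 groups did not overlap. Resiquimod over ovalbumin came to 2.29-fold in A/J (log2 difference 1.19 ± 0.12 SE, limma adjusted p = 7.7e-06, Benjamini-Hochberg over all 45037 probe sets) and to 2.14-fold in C57BL/6 (1.10 ± 0.12, limma adjusted p = 1.69e-05). Against PBS, Irf7 was higher in resiquimod lungs by 2.26-fold in A/J (limma adjusted p = 7.39e-06) and by 2.85-fold in C57BL/6 (limma adjusted p = 2.79e-07). Ovalbumin alone gave no called change of Irf7: the difference from PBS was -0.019 in A/J (95% interval -0.27 to 0.23) and 0.41 in C57BL/6 (0.16 to 0.66, limma adjusted p = 0.133). In whole lung, more cells that carry a transcript and more RNA per cell cannot be told apart. The Irf7 calls between treatments held without any 1 array and without the 8 arrays that carried squamous transcripts.

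Irf5, which drives inflammatory cytokine genes in macrophages and dendritic cells, was higher with resiquimod in C57BL/6. It read 7.31, 7.26 and 7.17 in C57BL/6 resiquimod lungs, 6.48, 6.87 and 6.67 in ovalbumin lungs and 6.31, 6.18 and 6.44 in PBS lungs. Resiquimod arrays lay above all others of the strain, and ovalbumin arrays lay just above PBS arrays. The resiquimod minus ovalbumin difference was 0.57 ± 0.16 (1.49-fold, limma adjusted p = 0.0339), and the resiquimod minus PBS difference was 0.94 ± 0.16 (limma adjusted p = 6.92e-04). In A/J it read 6.92, 7.09 and 6.34 in resiquimod lungs, 6.76, 6.42 and 6.62 in ovalbumin lungs and 5.90, 6.23 and 5.93 in PBS lungs. The third A/J resiquimod array lay below all 3 ovalbumin arrays, so those groups overlapped, and both lay above PBS. The A/J resiquimod minus ovalbumin difference was 0.18 (95% interval -0.16 to 0.51, limma adjusted p = 0.608), and resiquimod exceeded PBS by 0.76 ± 0.16 (limma adjusted p = 0.00578, or 0.0668 with the compared groups alone). Ovalbumin minus PBS was 0.58 ± 0.16 in A/J and 0.36 ± 0.16 in C57BL/6, neither past the threshold (limma adjusted p = 0.0586 and 0.424). The call between C57BL/6 resiquimod and ovalbumin was lost when any of 5 single arrays was left out (replicates 1 and 3 of ovalbumin, replicates 1, 2 and 3 of resiquimod, limma adjusted p up to 0.133). Without the squamous arrays no Irf5 difference was called, at 0.47 between C57BL/6 resiquimod and ovalbumin and, against PBS, at 0.63 in A/J and 1.06 in C57BL/6 (limma adjusted p = 0.335, 0.197 and 0.083). A second Irf5 probe set, 1449678_at, averaged 4.85 in C57BL/6 resiquimod and 4.81 in ovalbumin lungs, a difference of 0.038.

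Irf8, which directs the development of monocytes and type 1 conventional dendritic cells, was also higher with resiquimod in C57BL/6. It read 9.25, 9.30 and 9.50 in C57BL/6 resiquimod lungs, 8.78, 8.85 and 8.86 in ovalbumin lungs and 8.64, 8.85 and 8.63 in PBS lungs. Resiquimod arrays were above the other 6, and ovalbumin and PBS arrays overlapped. In A/J it read 9.04, 9.31 and 8.60 in resiquimod lungs, 8.70, 8.80 and 8.61 in ovalbumin lungs and 8.57, 8.71 and 8.71 in PBS lungs. Here again the third resiquimod array lay low, within the other groups. Resiquimod minus ovalbumin was 0.52 ± 0.13 in C57BL/6 (1.43-fold, limma adjusted p = 0.0209) and 0.28 ± 0.13 in A/J (limma adjusted p = 0.250). Resiquimod minus PBS was 0.64 ± 0.13 in C57BL/6 (limma adjusted p = 0.00326) and 0.32 ± 0.13 in A/J (limma adjusted p = 0.165). A second Irf8 probe set, 1416714_at, gave 0.54 ± 0.15 between C57BL/6 resiquimod and ovalbumin lungs (limma adjusted p = 0.0365) and 0.19 ± 0.15 between those of A/J. Without the third A/J resiquimod array the A/J difference from ovalbumin became 0.47 and was called, and without the second it became 0.12 (limma adjusted p = 0.705). The C57BL/6 call was lost without replicates 1 or 2 of ovalbumin or replicate 3 of resiquimod (limma adjusted p up to 0.104). Without the squamous arrays the C57BL/6 differences were 0.52 against ovalbumin and 0.52 against PBS, neither called (limma adjusted p = 0.241 and 0.336).

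Irf4, which is needed for alternatively activated macrophages, type 2 dendritic cells, plasma cells and Th2 cells, was higher after ovalbumin in A/J lungs and was not called between resiquimod and ovalbumin lungs of either strain. In A/J it read 7.29, 6.15 and 6.88 in resiquimod lungs, 6.87, 6.23 and 7.07 in ovalbumin lungs and 5.50, 5.52 and 5.16 in PBS lungs. In C57BL/6 it read 6.09, 7.15 and 6.04 in resiquimod lungs, 6.18, 6.59 and 6.56 in ovalbumin lungs and 5.41, 5.35 and 5.38 in PBS lungs. Every challenged array lay above every PBS array in both strains, and resiquimod and ovalbumin arrays overlapped widely. Ovalbumin over PBS came to 2.51-fold in A/J (1.33 ± 0.29, limma adjusted p = 0.018) and to 2.09-fold in C57BL/6, which was not called (1.06 ± 0.29, limma adjusted p = 0.113). Resiquimod over PBS was called in both strains, with 1.38 ± 0.29 in A/J (limma adjusted p = 0.00655) and 1.05 ± 0.29 in C57BL/6 (limma adjusted p = 0.0257). The resiquimod minus ovalbumin difference was 0.047 in A/J (95% interval -0.57 to 0.67) and -0.016 in C57BL/6 (-0.64 to 0.60). These wide intervals hold changes in both directions, so the lack of a call does not show that Irf4 stayed level. The A/J ovalbumin call was lost without replicate 3 of PBS or replicates 1 or 3 of ovalbumin (limma adjusted p up to 0.102), and without the squamous arrays the difference was 0.88 (limma adjusted p = 0.388). The C57BL/6 call against PBS was lost without replicate 2 of resiquimod (0.68) or any of the 3 PBS arrays (limma adjusted p up to 0.131), and without the squamous arrays (0.71, limma adjusted p = 0.216). A second, dim Irf4 probe set, 1421174_at, gave 0.26 for A/J ovalbumin against PBS (limma adjusted p = 0.497). For resiquimod against PBS it gave 0.12 in A/J and 0.22 in C57BL/6 (limma adjusted p = 0.747 and 0.439).

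Irf1 and Irf2, the activator and its opposing factor, differed by at most 1.36-fold between treatments. Irf2 read 7.56, 7.75 and 7.66 in A/J resiquimod lungs, 7.11, 7.38 and 7.37 in ovalbumin lungs and 7.38, 7.25 and 7.28 in PBS lungs. It read 7.50, 7.47 and 7.86 in C57BL/6 resiquimod lungs, 7.06, 7.49 and 7.25 in ovalbumin lungs and 7.01, 7.29 and 7.20 in PBS lungs. The resiquimod arrays stood above all others in A/J, and in C57BL/6 above PBS only. Resiquimod minus ovalbumin was 0.37 ± 0.12 in A/J and 0.34 ± 0.12 in C57BL/6, neither called (limma adjusted p = 0.0836 and 0.106), and resiquimod minus PBS was called in C57BL/6 (0.44 ± 0.12, 1.36-fold, limma adjusted p = 0.0224). Leaving out replicate 1 of C57BL/6 PBS or replicate 3 of C57BL/6 resiquimod ended that call (limma adjusted p up to 0.125), as did fitting the compared groups alone (limma adjusted p = 0.053) and leaving out the squamous arrays (0.39, limma adjusted p = 0.278). The Irf2 probe set carries the manufacturer's _s_ suffix, for probes that can be shared with other transcripts. Irf1 read 9.46, 9.40 and 9.40 in C57BL/6 resiquimod lungs, 9.18, 9.31 and 9.42 in ovalbumin lungs and 9.05, 9.15 and 9.11 in PBS lungs. Ovalbumin and resiquimod arrays both lay above PBS. Irf1 was higher in resiquimod than in PBS lungs of C57BL/6 by 0.32 ± 0.10 (limma adjusted p = 0.0459), a call that 12 of the 18 fits with 1 array left out did not give. It was also lost without the squamous arrays (limma adjusted p = 0.477) and with the squamous mean as a covariate (limma adjusted p = 0.075). In A/J, Irf1 differed from PBS by 0.11 in resiquimod lungs and 0.18 in ovalbumin lungs, with resiquimod arrays from 9.16 to 9.65.

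Irf3 and Irf9, which are made in most cells and are mainly controlled by phosphorylation and partner binding, had no call between treatments in either strain. Irf3 read 8.33, 8.58 and 8.24 in A/J resiquimod lungs, 8.24, 8.23 and 8.24 in ovalbumin lungs and 8.13, 8.39 and 8.35 in PBS lungs, and its C57BL/6 arrays spanned 8.24 to 8.57. Its largest treatment difference was 0.15 (A/J resiquimod minus ovalbumin, 95% interval -0.06 to 0.35). The Irf3 probe set carries the _x_ suffix, for probes that resemble other sequences, and 3 further probe sets exist. Probe sets 1416898_a_at and 1435271_at had no call in any comparison. Probe set 1438721_a_at was 0.58 higher in A/J resiquimod than ovalbumin lungs (limma adjusted p = 0.0178) and lower in A/J than in C57BL/6 in all 3 treatments, by -0.59 with PBS, -0.75 with ovalbumin and -0.46 with resiquimod (limma adjusted p = 0.0122, 0.002 and 0.0383). Irf9 read 7.51, 7.66 and 7.30 in A/J resiquimod lungs, 7.65, 7.64 and 7.65 in ovalbumin lungs and 7.48, 7.56 and 7.56 in PBS lungs. Its treatment differences lay between -0.16 and 0.15 in the 2 strains.

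**Figure D2:**
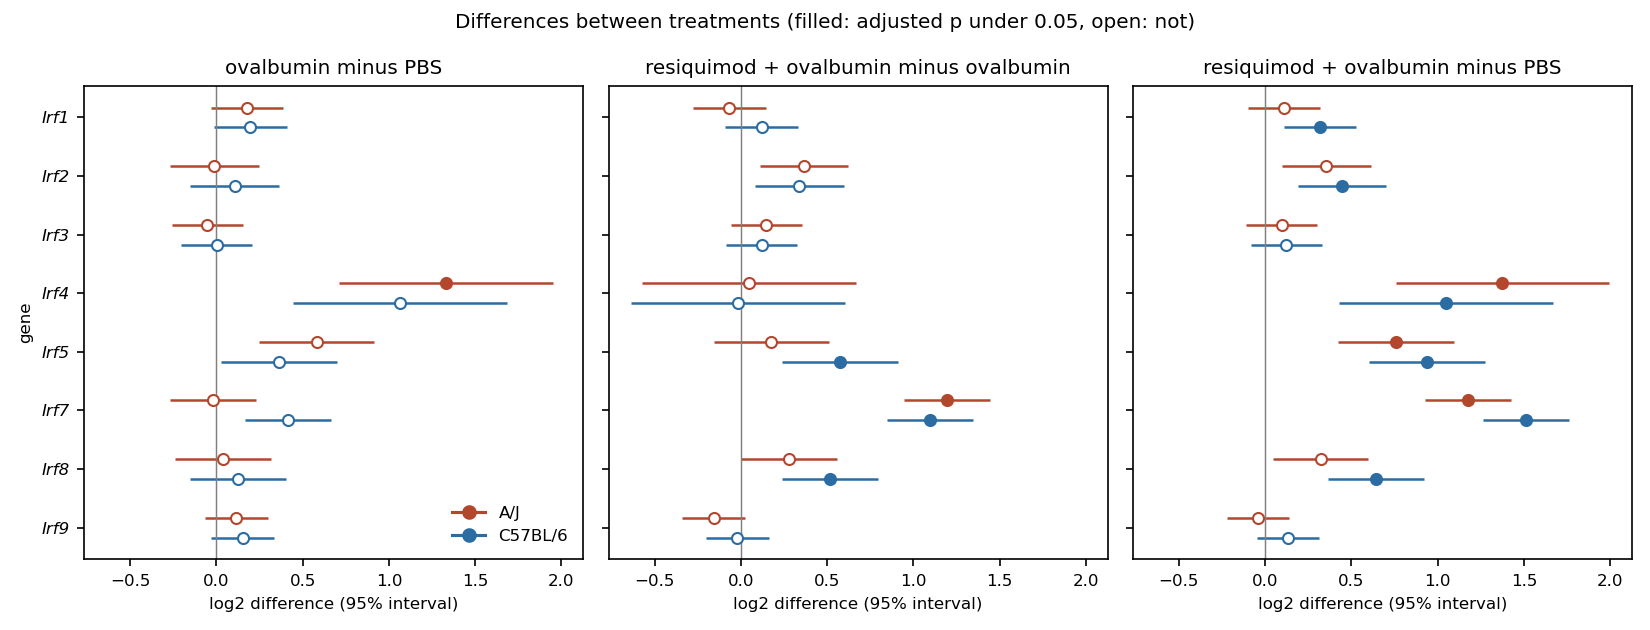
Log2 differences of each Irf gene with 95% intervals, in A/J (red) and C57BL/6 (blue) lungs, for ovalbumin minus PBS, resiquimod with ovalbumin minus ovalbumin, and resiquimod with ovalbumin minus PBS; filled points have an adjusted p under 0.05. Irf7 is the only member filled in both strains between resiquimod and ovalbumin (1.19 in A/J, 1.10 in C57BL/6), and the Irf4 intervals are the widest.

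Counted over the family, the calls between treatments were all upward. Between resiquimod and ovalbumin lungs, 1 of 8 members was called higher in A/J (Irf7) and 3 in C57BL/6 (Irf5, Irf7 and Irf8), where 4.38% and 5.8% of all genes were called higher. Between resiquimod and PBS lungs, 3 were called in A/J (Irf4, Irf5 and Irf7) and 6 in C57BL/6 (all but Irf3 and Irf9), against 5.86% and 9.61% of all genes. Between ovalbumin and PBS lungs, 1 was called in A/J (Irf4) and 0 in C57BL/6, against 3.2% and 1.44% of all genes. In that last comparison 3 members had an unadjusted limma p under 0.05 (Irf4, Irf5 and Irf7). The comparisons share groups, so their counts are not independent. In C57BL/6 the counts against PBS use the group that stood apart at Nnt, so substrain and treatment cannot be told apart in them. The median log2 difference of the 8 members from ovalbumin was 0.16 in A/J and 0.23 in C57BL/6 resiquimod lungs, against -0.0026 and -0.022 over all genes.

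Between strains, Irf7 was lower in A/J than in C57BL/6 lungs. With resiquimod it averaged 7.23 ± 0.07 in A/J and 7.83 ± 0.14 in C57BL/6 (SD, n = 3 arrays each), a difference of -0.59 ± 0.12 SE (limma adjusted p = 0.00204). With ovalbumin it averaged 6.04 ± 0.21 in A/J and 6.73 ± 0.15 in C57BL/6, a difference of -0.69 ± 0.12 SE (limma adjusted p = 8.22e-04). With PBS it averaged 6.06 ± 0.23 in A/J and 6.32 ± 0.03 in C57BL/6, and the difference of -0.26 was not called (limma adjusted p = 0.245). Neither the ovalbumin nor the resiquimod arrays overlapped between strains. From low to high, A/J ovalbumin, A/J PBS and C57BL/6 PBS overlapped with their neighbours, and C57BL/6 ovalbumin, A/J resiquimod and C57BL/6 resiquimod each stood clear of the group below.

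Irf9 was also lower in A/J with resiquimod, at 7.49 ± 0.18 in A/J and 7.79 ± 0.04 in C57BL/6 (SD, n = 3 arrays each; difference -0.30 ± 0.09 SE, limma adjusted p = 0.0276). That call was lost without replicates 1 or 3 of either resiquimod group (limma adjusted p up to 0.156) and without the squamous arrays (limma adjusted p = 0.213). Irf5 and Irf8 differed between resiquimod strains by -0.47 and -0.36 and were not called (limma adjusted p = 0.0625 and 0.0805), and both were called without replicate 2 of A/J resiquimod, at -0.62 and -0.53. Without replicate 3 of that group they came to -0.24 and -0.17 (limma adjusted p = 0.313 and 0.383). In all, 2 of 8 members were lower in A/J with resiquimod and 1 with ovalbumin, where 8.92% and 4.98% of all genes were lower. With PBS no member was called (Irf7 alone had an unadjusted limma p under 0.05), against 9.01% of all genes called either way. The strain difference in the ovalbumin effect was called for 0 of 8 members (0.0605% of all genes, either way). It was -0.43 ± 0.17 for Irf7 (limma adjusted p = 0.836), the 1 member with an unadjusted p under 0.05. The strain difference in the resiquimod effect was likewise called for 0 members (1.24% of all genes) and was under an unadjusted 0.05 for none. For Irf7 it was 0.095 (95% interval -0.26 to 0.45), for Irf5 -0.40 (-0.87 to 0.08) and for Irf8 -0.24 (-0.63 to 0.15). Irf5 and Irf8 were called with resiquimod in C57BL/6 only, and this test did not call a strain difference for either (limma adjusted p = 0.482 for Irf5 and 0.640 for Irf8).

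The 10 pan-leukocyte genes, present in all white blood cells, moved with the same groups. Their mean log2 value lay at 9.20 to 9.76 in A/J resiquimod lungs, 8.84 to 9.19 in A/J ovalbumin lungs and 8.57 to 8.85 in A/J PBS lungs. In C57BL/6 it lay at 10.01 to 10.07 with resiquimod, 8.94 to 9.07 with ovalbumin and 8.75 to 8.80 with PBS. Between resiquimod and ovalbumin lungs, 7 of the 10 were higher in A/J and all 10 in C57BL/6, with a median of 0.48 and 1.05; Rac2, a small GTPase of blood cells, changed most (0.91 and 1.69). The third A/J resiquimod array, lowest of its group in 6 of 8 members, had the lowest leukocyte mean of its group, 9.20. With each array's leukocyte mean as a covariate, a setting chosen after seeing the data, Irf7 kept its resiquimod minus ovalbumin difference in A/J (1.18, limma adjusted p = 0.00185) and had a similar value in C57BL/6 that was no longer called (1.07, limma adjusted p = 0.271). In the same setting Irf5 and Irf8 came to -0.54 and -0.042 in C57BL/6 (limma adjusted p = 0.589 and 0.981). Taken simply as Irf7 minus the leukocyte mean, A/J averaged -3.01 in ovalbumin and -2.32 in resiquimod lungs. The same value in C57BL/6 was -2.27 with ovalbumin and -2.21 with resiquimod, so there Irf7 rose about as much as the leukocyte genes. In both strains every resiquimod array had a higher leukocyte mean than every other array of the strain, by a wide margin in C57BL/6 only. In A/J, replicate 3 of resiquimod (9.1961) lay beside replicate 1 of ovalbumin (9.1875), and Irf7 read 7.16 and 6.28 on these arrays. These arrays also differed in squamous genes, which averaged 7.53 on the ovalbumin array and 4.07 on the resiquimod array. Leukocyte level and treatment rose together and cannot be told apart in either strain.

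**Figure D3:**
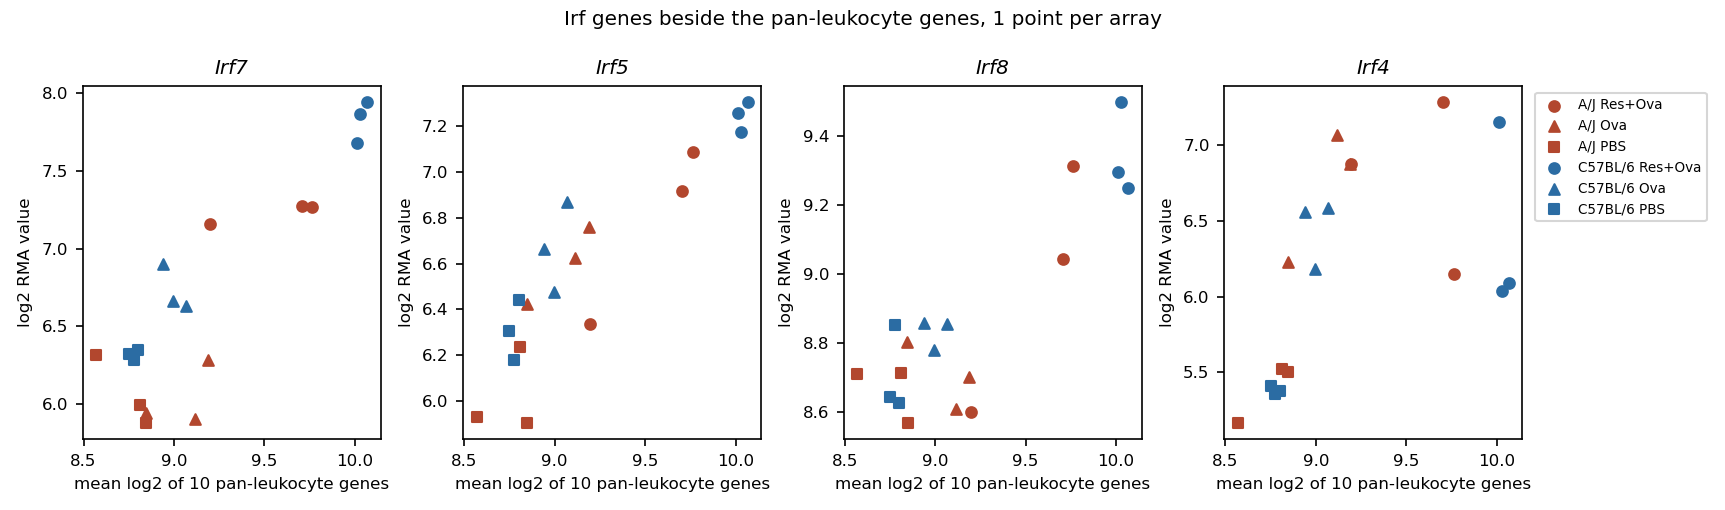
Log2 value of Irf7, Irf5, Irf8 and Irf4 (vertical axes) against the mean log2 value of 10 pan-leukocyte genes (horizontal axes), 1 point per array, for resiquimod with ovalbumin (circles), ovalbumin (triangles) and PBS (squares) in A/J (red) and C57BL/6 (blue). The C57BL/6 resiquimod arrays lie at 10.01 to 10.07 on the horizontal axis, apart from the rest, and Irf4 is spread from 6.04 to 7.15 among them.

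Markers of single cell types moved with resiquimod as well, and their part in the Irf values was not tested. Of 13 NK and cytotoxic T cell genes, 11 were higher in A/J and 12 in C57BL/6 resiquimod than ovalbumin lungs, with medians of 2.60 and 2.63; Gzma, a cytotoxic granule protease, rose by 4.59 and 4.22 log2 units. Of 16 macrophage and monocyte genes, 10 were higher in each strain and 1 was lower in A/J, led by Fcgr4 (2.59 and 3.50), an IgG receptor of monocytes, and Marco (1.97 and 1.79), a scavenger receptor of alveolar macrophages. Of 11 B cell genes, 1 was higher and 1 lower in A/J, and 6 were higher in C57BL/6 (Ms4a1, which encodes CD20, by 1.98). Of 8 plasma cell genes, the antibody-secretion chaperone Mzb1 rose in both strains (2.69 and 2.67), and 1 other was lower in C57BL/6. The plasma cell list averaged 8.48 to 9.18 in A/J resiquimod lungs against 7.72 to 8.43 in A/J ovalbumin lungs, and 8.28 to 9.02 against 7.72 to 8.17 in C57BL/6. The array that read highest for Irf4 in each resiquimod group, replicate 1 of A/J and replicate 2 of C57BL/6, was also the only squamous array of its group and had the highest plasma cell mean (9.18 and 9.02) and muscle mean (9.92 and 9.94). In A/J the array highest for Irf4 also had the highest plasma cell mean of its group with ovalbumin (8.43) and with PBS (8.36). In C57BL/6 the array highest for Irf4 had the lowest plasma cell mean of its group with ovalbumin (7.72) and with PBS (7.70). Of 9 plasmacytoid dendritic cell genes, 1 was called in A/J and 2 in C57BL/6, all of them higher. Neutrophil genes were higher in 5 of 11 in A/J and 7 of 11 in C57BL/6, T cell genes in 0 and 3 of 10 (1 was lower in A/J), and of 6 eosinophil genes 4 were lower in A/J, while 1 was higher and 1 lower in C57BL/6. Of 7 heart and skeletal muscle genes, 2 were lower in A/J and 4 in C57BL/6 resiquimod than ovalbumin lungs. Downward counts in this comparison stand without the share of all genes called lower, which is not given here.

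Among genes upstream of the family, no interferon gene was called between resiquimod and ovalbumin or between ovalbumin and PBS lungs in either strain, over 10 measured ligands. These ligands averaged 3.47 to 3.68 on the 18 arrays, near the 25th percentile of all values (3.33) and under their median (4.78). Changes may not register on such dim probe sets, so the lack of a call is weak evidence of no change. Ifng, the interferon of T and NK cells, differed most between resiquimod and ovalbumin, by 0.50 in A/J (limma adjusted p = 0.360) and 0.92 in C57BL/6 (limma adjusted p = 0.054), on a probe set that read 2.67 to 4.62 over the 18 arrays. Against PBS it was the 1 ligand called higher in C57BL/6 resiquimod lungs (1.02, limma adjusted p = 0.0229), and none was called in A/J. Of 21 sensors and adaptors, 3 were higher and 1 lower in A/J resiquimod than ovalbumin lungs, and 3 were higher in C57BL/6. Tlr7, the receptor of resiquimod, was higher by 0.67 ± 0.10 in A/J (limma adjusted p = 5.92e-04) and 1.08 ± 0.10 in C57BL/6 (limma adjusted p = 5.72e-06). Irak3, a brake on Toll-like receptor signalling, was higher by 0.97 and 0.64, and Unc93b1, which carries Tlr7 to endosomes, was called in C57BL/6 (0.47). Sting1, the adaptor of cytosolic DNA sensing, rose with ovalbumin against PBS by 0.74 in A/J and 0.70 in C57BL/6 and was lower in A/J resiquimod than ovalbumin lungs (-0.43). Among 15 receptor and JAK-STAT genes, the feedback inhibitor Socs1 was higher in ovalbumin than PBS lungs (0.79 in A/J, 0.73 in C57BL/6) and lower in resiquimod than ovalbumin lungs (-0.71 and -0.48). The gamma receptor subunit Ifngr1 was higher in resiquimod than ovalbumin lungs by 0.35 in each strain. In that comparison 2 of the 15 were higher and 1 lower in A/J, and 2 were higher and 2 lower in C57BL/6.

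Irf7 is itself a type I interferon-stimulated gene and regulates others of that list. Against PBS, 2 of the 30 measured were higher and 4 lower in A/J resiquimod lungs, and 9 were higher and 1 lower in C57BL/6 (median 0.19). Of the same 30, 2 were higher and 2 lower in A/J resiquimod than ovalbumin lungs, and 2 were higher and 1 lower in C57BL/6, with medians of -0.029 and 0.051 against -0.0026 and -0.022 over all genes. Rsad2, the antiviral protein viperin, was lower by -1.66 ± 0.18 in A/J (limma adjusted p = 2.31e-05) and by -0.76 ± 0.18 in C57BL/6 (limma adjusted p = 0.0153). It read 6.34, 6.22 and 6.02 in A/J resiquimod lungs and 7.84, 7.98 and 7.73 in A/J ovalbumin lungs. In C57BL/6 the nucleic acid sensor Zbp1 was higher by 0.97 (limma adjusted p = 0.00629) and the virus tether Bst2 by 0.45 (limma adjusted p = 0.00188). With ovalbumin against PBS, 1 was higher in A/J (Mx1, an antiviral GTPase, 0.75) and 2 were lower, and 2 were higher in C57BL/6 (Oas1a, which makes the activator of RNase L, 0.75). Between strains the list leaned one way with resiquimod and with ovalbumin. Of 30 genes, 12 were lower in A/J than in C57BL/6 with resiquimod and 8 with ovalbumin, where 8.92% and 4.98% of all genes were lower. With PBS 3 of 30 were lower, and 0 were higher in these comparisons. The share at hand for PBS, 9.01% of all genes, counts calls either way, so it is no like background for the genes called lower. Trim30a, an interferon-induced ubiquitin ligase family member, was lower in A/J by -0.79 with resiquimod and -0.89 with ovalbumin (limma adjusted p = 8.93e-06 and 3.09e-06). With PBS it also lay lower in A/J (8.52, 8.58 and 8.59) than in C57BL/6 (9.08, 8.97 and 9.02), without overlap.

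The genes induced by interferon gamma and Irf1 mostly rose where they were called. Of 30 measured, 8 were higher and 2 lower in A/J resiquimod than ovalbumin lungs (median 0.21), and 17 were higher and 1 lower in C57BL/6 (median 0.48). The class I molecule H2-K1 was higher in A/J by 0.68 ± 0.07 (limma adjusted p = 1.86e-05) and the immunoproteasome subunit Psmb8 by 0.65 (limma adjusted p = 9.4e-04). In C57BL/6 the T cell attractant Cxcl9 was higher by 1.52 ± 0.17 (limma adjusted p = 2.92e-05), the tryptophan-degrading enzyme Ido1 by 1.33 ± 0.09 (limma adjusted p = 1.99e-07) and the peptide transporter Tap1 by 1.09 ± 0.18 (limma adjusted p = 8.26e-04). Cxcl9 was also higher with ovalbumin against PBS, by 3.10 in A/J and 2.35 in C57BL/6, as was Cxcl10, by 2.10 and 1.68. Cxcl10 was lower in A/J resiquimod than ovalbumin lungs (-1.17, limma adjusted p = 0.0133). With ovalbumin against PBS, 4 of the 30 were higher in A/J and 3 in C57BL/6, while Irf1 itself was called in neither strain. The ISRE letters stood in the promoter window of 9 of 21 of these genes with an entry (42.9%) and of 9 of 20 type I genes (45.0%), against 3.99% of all genes, and the GAS letters in 4 of 21 and 7 of 20, against 9.55%.

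**Figure D4:**
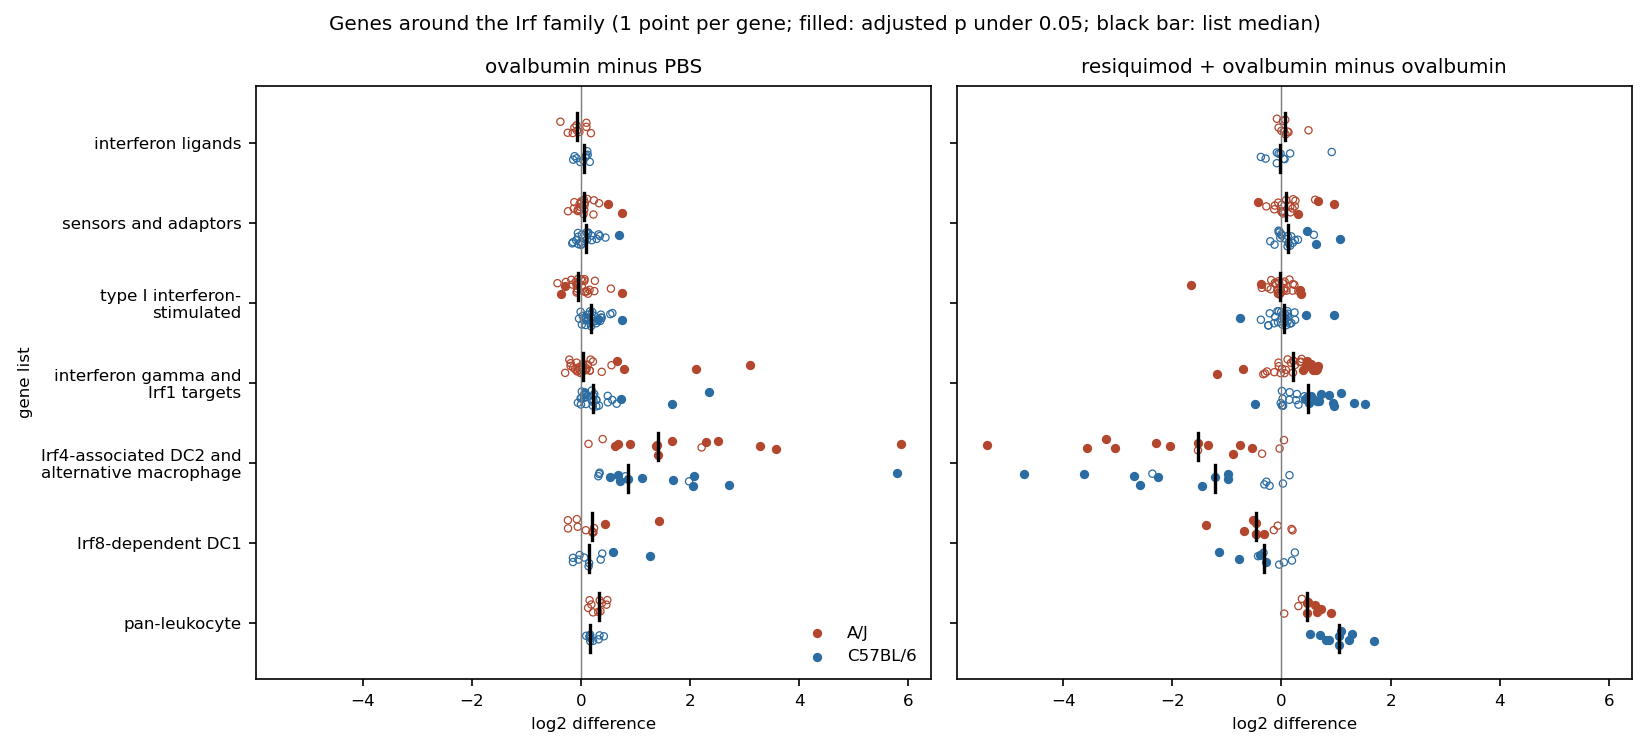
Log2 differences of genes around the Irf family, 1 point per gene, in A/J (red) and C57BL/6 (blue), for ovalbumin minus PBS (left) and resiquimod with ovalbumin minus ovalbumin (right); filled points have an adjusted p under 0.05 and black bars are list medians. The Irf4-associated list has medians of 1.41 and 0.87 on the left and -1.53 and -1.22 on the right. The interferon ligands, which were dim on every array, stay near 0.

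Most genes of a list tied to Irf4 in dendritic cells and macrophages were called higher with ovalbumin and lower with resiquimod. The list was chosen with earlier results of these data known, and a link of its genes to Irf4 in these lungs was not tested. Of 15 genes of type 2 dendritic cells and alternatively activated macrophages, 12 were higher in A/J ovalbumin than PBS lungs and 10 in C57BL/6, with medians of 1.41 and 0.87. In resiquimod against ovalbumin lungs, 11 were lower in A/J and 9 in C57BL/6, with medians of -1.53 and -1.22, where Irf4 differed by 0.047 and -0.016. The lectin Mgl2 was higher with ovalbumin by 1.67 in A/J and 1.69 in C57BL/6 and lower with resiquimod by -3.22 and -3.62. The chitinase-like protein Chil4 was lower with resiquimod by -5.39 and -4.72. Of 11 genes of type 1 conventional dendritic cells, which depend on Irf8, 2 were higher in ovalbumin than PBS lungs of each strain (medians 0.21 in A/J and 0.14 in C57BL/6). Of the same 11, 7 were lower in A/J resiquimod than ovalbumin lungs and 4 in C57BL/6, with medians of -0.46 and -0.33, where Irf8 differed by 0.28 and 0.52. The medians over all genes were -0.0026 and -0.022. The share of all genes called lower is not given for this comparison, so the downward counts of both lists stand without one. The integrin Itgae was lower by -0.69 and -0.77. Batf3, a partner of both factors, was higher with ovalbumin against PBS by 1.44 ± 0.11 in A/J and 1.27 ± 0.11 in C57BL/6 and lower with resiquimod against ovalbumin by -1.38 ± 0.11 and -1.15 ± 0.11. Another 2 of the 17 partner genes, the lymphoid zinc finger factors Ikzf1 and Ikzf3, were higher with resiquimod in both strains, Ikzf3 by 1.29 and 2.18.

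For the 3 members whose group means spanned at least 1 log2 unit, the genes with the most similar pattern were found by the root mean square difference of centred log2 values over the 18 arrays. For Irf7 these were Hcls1 (0.24), Il2rb (0.25) and Stat4 (0.25). For Irf5 they were Nup210 (0.13), Cyrib (0.15) and Fermt3 (0.16). For Irf4 they were Sla (0.34), Cfp (0.34) and C1qa (0.38), so its nearest genes lay further away than those of the other 2. Hcls1 averaged 7.48, 6.45 and 6.37 in A/J resiquimod, ovalbumin and PBS lungs and 7.91, 6.76 and 6.44 in C57BL/6 ones. Likeness of this kind is a description over samples that share the same 6 groups.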

How the data were processed

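Expression was measured on 18 Affymetrix mouse genome arrays, 3 per group, which the labels call biological replicates; nothing states more on cages or batches, so p-values measure the spread between these lungs. The deposited values are log2 intensities made by the authors with RMA from the affy package, per the submitters' processing notes; RMA quantile-normalises, so array-wide shifts are removed. Depth has no meaning here; the number of arrays limits precision.

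Of 45101 probe sets, 64 controls were left out. Of the 45037 kept, 34945 name 1 gene in the platform annotation, 932 several and 9160 none; per gene the highest mean was used. limma 3.58.1 (R 4.3.3) fitted 6 group means with eBayes (two-sided, Benjamini-Hochberg over all 45037, called under 0.05), and was tested on simulated data. The single-value exact permutation test of 3 against 3 arrays was not used, since it cannot pass the threshold.

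Context genes are the largest called changes of 21 lists (277 of 311 genes measured), with up to 4 named per list and comparison. The members, lists and rules were chosen with earlier results of these data known. Alternatives were each array left out, the compared groups alone, an intensity trend, median centring, a filter on dim probe sets, other probe sets, the squamous genes (as covariate, or arrays left out), the replicate number as a block and, added after seeing the data, a leukocyte covariate.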

Additional observations from a re-analysis of the deposited data

Results flagged for a closer look

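No Irf gene had a strain difference in its ovalbumin or resiquimod effect that passed the limma threshold. Among the other genes named, 4 did. Cxcl9 differed between strains in the resiquimod effect by -1.16 (A/J minus C57BL/6, limma adjusted p = 0.0377), Ido1 by -0.83 (limma adjusted p = 0.00823) and Fcgr4 by -0.90 (limma adjusted p = 0.0424), each with the smaller increase in A/J. Nnt differed in the ovalbumin effect by -1.38 (limma adjusted p = 1.33e-04), with all 3 C57BL/6 PBS arrays at 6.90 to 7.27 and every other array at 8.05 or above. Against PBS, the Nnt resiquimod difference was -0.25 in A/J and 1.28 in C57BL/6, with every array of each resiquimod group on its side of its own PBS group; that difference between strains was not tested.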

How the results depend on the processing

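Over 88 values (8 genes in 11 comparisons), 669 of 704 results from 8 alternative settings and 1542 of 1584 from leaving out 1 array kept their side of the threshold. The sign changed in 37 of the 704, 6 of them called differences, and in 57 of the 1584, none of them called. Omitting 1 array gave 0 to 2 called members for A/J ovalbumin against PBS, 0 to 1 for C57BL/6, 1 to 2 for A/J resiquimod against ovalbumin, 1 to 3 for C57BL/6, 3 to 4 for A/J resiquimod against PBS, 3 to 6 for C57BL/6 and 1 to 4 for the strains with resiquimod. The lowest counts came without replicate 3 of A/J PBS or replicates 1 or 3 of A/J ovalbumin, without replicate 1 of C57BL/6 ovalbumin or replicate 3 of C57BL/6 resiquimod, and without replicate 1 of C57BL/6 PBS. With the compared groups alone, C57BL/6 ovalbumin against PBS gave 1 call and the strains with resiquimod 1. An intensity trend and the filter on dim probe sets each gave 2 for A/J ovalbumin against PBS, and the squamous covariate gave 1 for C57BL/6. Without the 8 squamous arrays the counts were 0 for A/J ovalbumin against PBS, 1 each for C57BL/6 resiquimod against ovalbumin and against PBS, and 1 for the strains with resiquimod; fewer arrays were then fitted. With the leukocyte covariate they were 0 for A/J ovalbumin against PBS, 0 for C57BL/6 resiquimod against ovalbumin, 1 for A/J and 0 for C57BL/6 resiquimod against PBS, and 0 for the strains with resiquimod. Irf4 in A/J ovalbumin against PBS (1.24), Irf7 in C57BL/6 resiquimod against ovalbumin (1.07) and against PBS (1.48), Irf2 against PBS there (0.48) and Irf7 between the strains with resiquimod (-0.58) kept similar values without a call. Reversed values with that covariate were, against ovalbumin in C57BL/6, Irf5 -0.54 and Irf8 -0.042, and, against PBS, Irf5 -0.12 in A/J and, in C57BL/6, Irf1 -0.084, Irf5 -0.42 and Irf8 -0.041; the cause was not tested. The second Irf5 probe set reversed resiquimod against PBS, to -0.051 in A/J and -0.028 in C57BL/6. Of 45 pairs of same-numbered arrays, 27 deviated together at r over 0.1 (r from -0.63 to 0.61). Among 18 arrays, 7 correlated best with their own number. For numbers 1 and 2, every pair with the C57BL/6 resiquimod array was negative (r from -0.63 to -0.21). Every other pair of these 2 numbers was positive (r from 0.17 to 0.61). Squamous transcripts were split alike: number 1 carried them in every group but C57BL/6 resiquimod, and number 2 only there. This check therefore does not settle whether the numbers pair lungs. A replicate block cannot move a difference when each group has 1 array of each number (Irf7 in A/J resiquimod against ovalbumin is 1.19 either way). With it, the adjusted p of 88 of 88 values kept its side of the threshold. Detection above background was not measured in these values, which limits what the dim second Irf4 probe set can show.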
